A study of Homo sapiens with 27 samples.

Results

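Levels of mRNA in IMR90, a human fibroblast line from normal fetal lung, were compared between cells made senescent by ionizing radiation and cycling cells. The members are the 5 RNA-seq libraries, of 27 libraries in the series, whose titles name them as irradiation-induced senescent (3) or as cycling without thapsigargin (2). Irradiated cells received 15 Gy and were harvested after 10 days, and cycling cells were harvested at 40 to 60% confluency. The cells are labelled wild type in both groups, which share a high-glucose medium with 10% serum. Quiescent cells, held by contact inhibition, and cells made senescent by 3 treatments with 50 µM etoposide over 10 days were used as further references, with 3 RNA-seq libraries each. Cycling cells given 25 nM thapsigargin for 3 h (2 RNA-seq and 2 Ribo-seq libraries) were not compared. They entered only the shared fits from which the SE and p-values come. Etoposide is a topoisomerase II poison that breaks DNA. Ribosome footprints of irradiated and cycling cells (Ribo-seq, 3 libraries each, from lysates harvested in parallel) served as another readout. All samples come from 1 cell line, and no label says that replicates came from separate cultures or irradiations, so p-values measure only the spread between these libraries, which may be technical.

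Senescence is a lasting exit from the cell cycle that follows unrepaired DNA damage and other stresses. After damage, p53 raises the CDK inhibitor p21, RB family proteins stay unphosphorylated, and E2F and DREAM target genes of replication and mitosis are repressed. Senescent fibroblasts are also known for loss of lamin B1, for secreted cytokines, proteases and growth factors (the senescence-associated secretory phenotype), and for a large lysosomal compartment.

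Gene counts per library, in units of 1e6, were 29.3 and 20.6 in cycling cells and 30.0, 29.9 and 28.9 in irradiated cells. The second cycling library stood apart in 33.4% of its reads mapping to several places, against 13.2% in the other cycling library and 18 to 21.2% in the irradiated libraries. Counts on the opposite strand were 10.7% of its total, against 5.88 to 7.14% in the other 4 libraries. The part of these differences in the results was not tested, and values without each cycling library are given where they change a call. The fibroblast label fitted the markers: 10 of 10 fibroblast markers were tested, with summed levels of 13667 and 19260.0 CPM (counts per 1e6 after TMM scaling) in cycling and 12965, 13254 and 13289.8 CPM in irradiated libraries. The sum hides single markers: PDGFRA was at 251 and 304 CPM in cycling and 148, 134 and 149 CPM in irradiated libraries. LUM was at 66.9 and 77.1 CPM in cycling and 140, 149 and 157 CPM in irradiated libraries. At an adjusted p under 0.05, 1 of the 10 was higher and 2 lower, where 16.2% of all genes were higher and 18.8% lower. Sums over 10 epithelial markers were 3.18 and 2.02 CPM in cycling and 0.986, 0.665 and 0.708 CPM in irradiated libraries, and over 10 immune markers 2.88 and 2.91 CPM in cycling and 1.02, 1.56 and 1.57 CPM in irradiated libraries. The keratins KRT5 and KRT14 and the T cell marker CD3E had 0 counts in all 5 libraries. The 10 endothelial markers summed to 22.3 and 28.7 CPM in cycling and 36.6, 37.8 and 39.7 CPM in irradiated libraries, most of it TEK. In bulk RNA, fewer cells of a type and less RNA per cell cannot be told apart, and TMM scaling hides any change shared by all genes.

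Of 13284 protein-coding genes tested, 4643 (35.0%) passed an adjusted p of 0.05 in irradiated against cycling cells. Of these, 2149 (16.2% of the genes tested) were higher and 2494 (18.8%) were lower, and the median log2 fold change of all genes was 0.03. Changes of at least 2-fold were called for 745 genes that rose (5.61%) and 1269 that fell (9.55%). At 8-fold or more the counts were 96 and 128. Some members of the gene lists described here missed the filter on low counts and so were not tested. These were 2 of 31 histones, 3 of 22 cytokines, 3 of 22 proteases and inhibitors, 3 of 16 complement genes, 4 of 18 WNT genes and 1 each of the interferon and class I lists. In the NRF2 list 1 of 20 members had no matching gene symbol and was not tested. All irradiated libraries lay above both cycling libraries in 35.3% of the genes tested and below both in 32.6%. The number of calls fell to 2796 without cycling 1 and to 3112 without cycling 2. Against quiescent cells 2488 genes (18.7%) were called and against etoposide-treated cells 2997 (22.6%). The first of these counts ranged from 1440 to 2834 and the second from 1843 to 2321 when 1 library was left out. The share called was near or below 35.0% in matrix glycoproteins (18.2%), translation factors (20.0%), complement (23.1%), contractile genes (30.0%), TGF-beta genes (33.3%), cytokines (36.8%), interferon-stimulated genes (39.1%), stress response targets (40.9%) and collagens (42.9%), so their counts of calls do not set these lists apart. Of the 4643 genes, 2353 (50.7%) were called in the same direction in each of the 5 fits that left out 1 library.

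**Figure D1:**
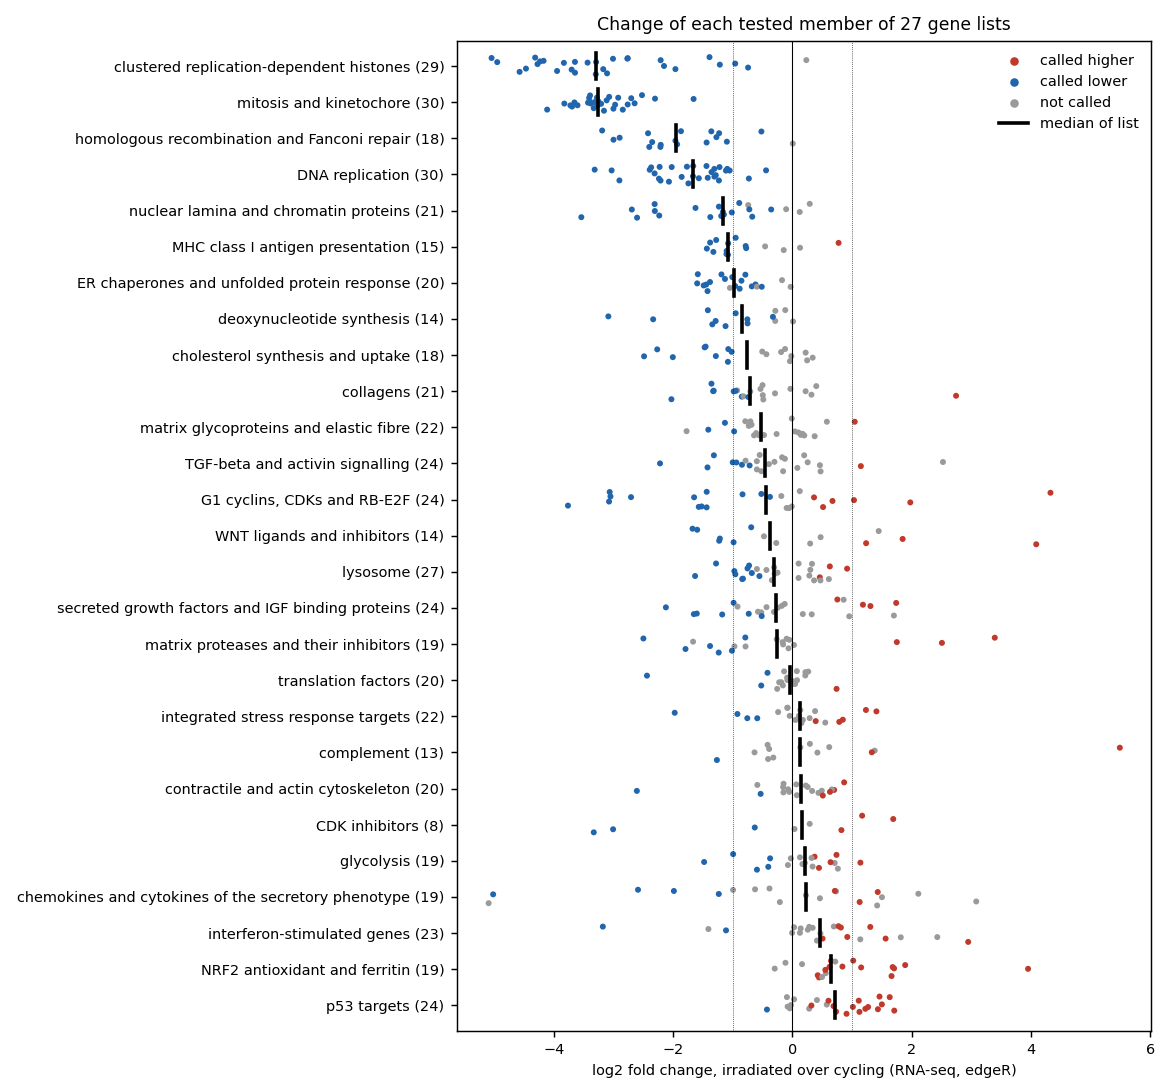
Log2 fold change of each tested member (points) of 27 gene lists in irradiated over cycling RNA-seq libraries, with list medians as black bars, the number tested in brackets and dotted lines at 2-fold. Lists of histones, mitosis, recombination repair and replication lie on the low side, while p53 targets and NRF2 targets with ferritin have the highest medians, 0.71 and 0.65.

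Among genes at 5 CPM or more with groups that do not overlap, the largest rise was DIRAS2. It encodes a Ras-like GTPase of the DIRAS family. Its cycling libraries held only 4 counts in all (0.110 and 0.0519 CPM), while the irradiated libraries were at 7.70, 10.7 and 8.65 CPM, so that the ratio of summed counts was 105 (95% exact interval 40.9 to 387, counting error only). ADH1B, a class I alcohol dehydrogenase, was at 1.75 and 5.92 CPM in cycling and 171, 107 and 155 CPM in irradiated cells, a log2 fold change of 5.28 ± 0.64 (SE, adjusted p = 3.53e-05). FMO2, a flavin-containing monooxygenase of the lung, rose from 1.68 and 1.45 CPM in cycling to 63.8, 47.9 and 48.3 CPM in irradiated cells, by 5.08 ± 0.36 (adjusted p = 3.10e-07). Groups that do not overlap were a condition for naming these 3 genes. Etoposide-treated cells were at 12.3, 2.95 and 12.7 CPM for ADH1B and at 7.13, 3.57 and 6.09 CPM for FMO2, below every irradiated library. The irradiated libraries differed from them by 3.95 ± 0.49 (adjusted p = 0.000202) and 3.25 ± 0.26 (adjusted p = 1.77e-05). Quiescent levels of ADH1B and FMO2 are plotted below but not compared in the text. The values given therefore do not show whether these rises are particular to irradiation or shared with quiescence.

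The other largest rises included genes of iron and redox metabolism, of the matrix and of the cell cycle. SLC40A1, the iron exporter ferroportin, was at 12.5 and 17.2 CPM in cycling and 177, 167 and 176 CPM in irradiated cells (3.55 ± 0.21, adjusted p = 1.15e-07). GPX3, a secreted glutathione peroxidase, went from 1.72 and 1.09 CPM in cycling to 23.8, 21.3 and 21.5 CPM in irradiated cells (3.95 ± 0.39, adjusted p = 5.48e-06). FMOD, which encodes the collagen-binding proteoglycan fibromodulin, had a log2 fold change of 3.36 ± 0.37, and SULF2, an extracellular sulfatase that edits heparan sulfate, one of 3.45 ± 0.36. ATP8B4, a P4-type ATPase, rose by 3.65 ± 0.39, the kinase gene CDKL4 by 3.35 ± 0.29 and ARRDC4, an arrestin-domain relative of TXNIP, by 3.15 ± 0.13. MYH11, smooth muscle myosin heavy chain, was at 2.63 and 4.77 CPM in cycling and 47.9, 37.7 and 32.6 CPM in irradiated libraries (3.43 ± 0.43, adjusted p = 4.71e-05). Among the 10 smooth muscle and pericyte markers, MYH11, SYNPO2, RGS5 and DES rose while KCNJ8, ABCC9, CSPG4 and MCAM fell. The call of DES was lost without cycling 2 (adjusted p = 0.146) and irradiated 2 (0.0522), and that of RGS5 without cycling 1 (adjusted p = 0.110). Their sum was 563 and 548 CPM in cycling and 630.2, 665 and 591 CPM in irradiated cells, and the part of any change in cell type was not tested.

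**Figure D2:**
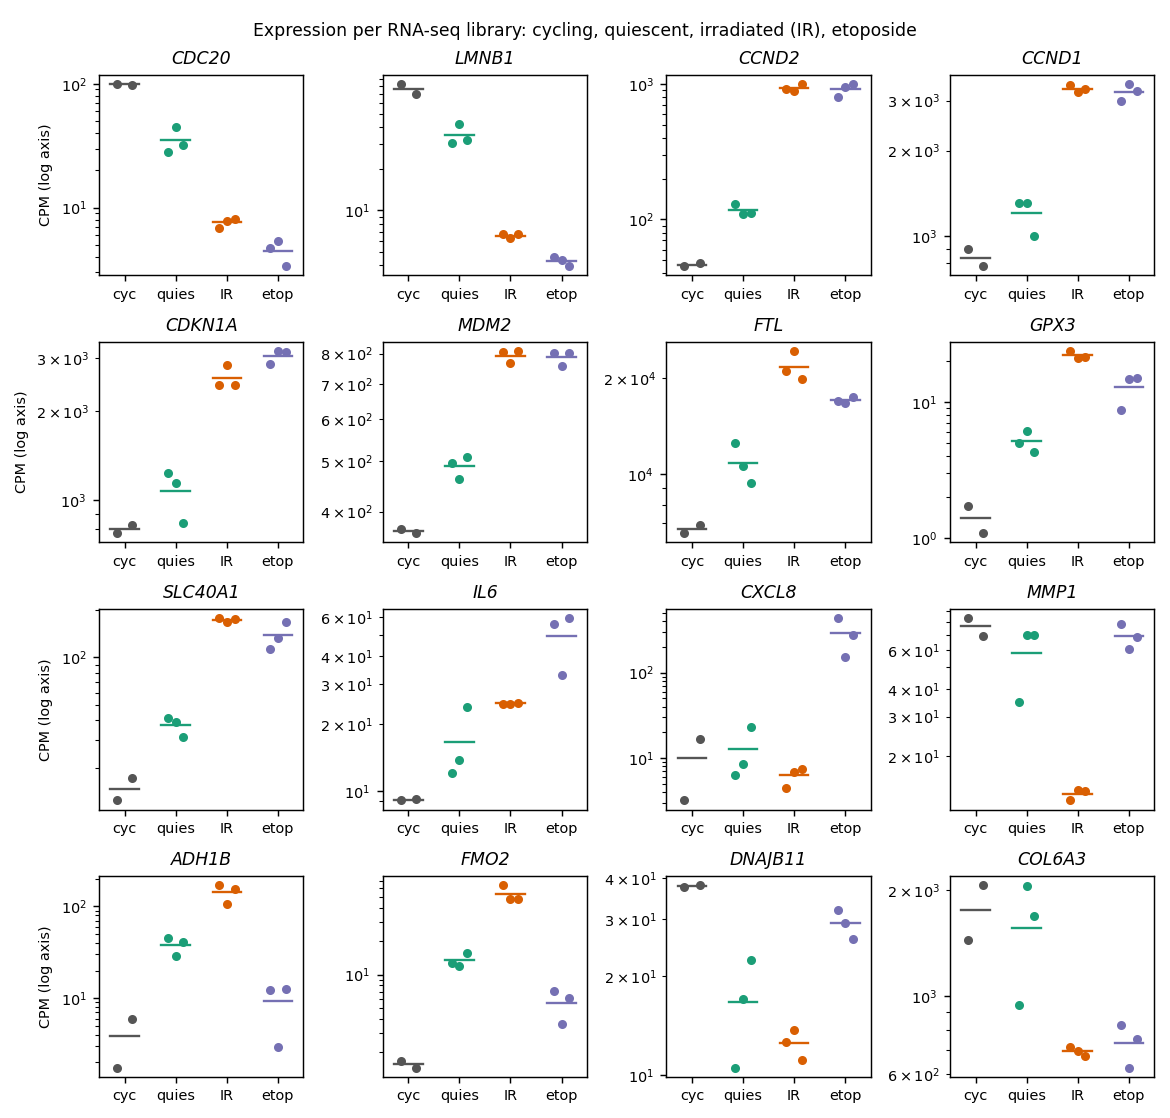
CPM of 16 genes on log axes, each point an RNA-seq library and each line a group mean, in cycling, quiescent, irradiated (IR) and etoposide-treated cells. CCND2 and FTL are high in both senescent groups. ADH1B and FMO2 are higher in irradiated than in cycling and etoposide-treated cells, and their quiescent levels are not compared in the text. CXCL8 is high in etoposide-treated cells, and MMP1 is low in irradiated cells.

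Genes of mitosis fell without exception. All 30 tested members of the mitosis and kinetochore list were called lower, and in all of them the 3 irradiated libraries lay below both cycling libraries, as they did in 32.6% of all genes tested. Their log2 fold changes ran from -4.11 to -1.66, with a median of -3.26. CENPA, the histone variant that marks centromeres, was at 25.9 and 24.4 CPM in cycling and 1.06, 1.49 and 1.81 CPM in irradiated cells (-4.11 ± 0.23, adjusted p = 8.96e-08). CDC20, which activates the anaphase-promoting complex, was at 100.2 and 97.3 CPM in cycling and 6.82, 7.86 and 8.18 CPM in irradiated cells (-3.70 ± 0.21, adjusted p = 8.96e-08). The mitotic kinase AURKB and the cytokinesis kinesin KIF20A changed by -3.83 ± 0.25 and -3.72 ± 0.19. MKI67, the proliferation antigen Ki-67, was at 144 and 167 CPM in cycling and 15.2, 10.5 and 18.2 CPM in irradiated libraries (-3.41 ± 0.46, adjusted p = 7.63e-05). TROAP, a spindle-associated protein gene, changed by -3.98 ± 0.26 and MYBL2, the B-Myb activator of late cell cycle genes, by -3.76 ± 0.24. Both were also among the 12 largest falls outside the histone list.

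CDC20 was at 28.2, 44.6 and 32.2 CPM in quiescent libraries, below both cycling and above all irradiated libraries. Irradiated cells were lower than quiescent cells in 29 of 30 mitosis genes, with a median of -1.92, where 9.71% of all genes tested were called lower. Against etoposide-treated cells 10 of the 30 were higher and 0 lower, where 9.67% of all genes were called higher. The 10 fell to 4 without etoposide 3 and to 3 without irradiated 3. For KIF20A the etoposide libraries were at 7.76, 6.28 and 4.91 CPM, a difference of 0.89 ± 0.18 (adjusted p = 0.00298). The comparisons with quiescent and etoposide-treated cells share the irradiated libraries with the comparison with cycling cells and are not independent of it.

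Promoters of 3 genes of this list are printed because they carry the CHR element, TTTGAA, a docking site of the DREAM and B-Myb complexes close to the start of many mitotic genes. Each runs from 150 bases upstream to the base before the transcription start, 5′ to 3′ on the gene's strand (RefSeq, GRCh38.p14), with the match in capitals.
CENPA (chr2:26785906-26786055, + strand): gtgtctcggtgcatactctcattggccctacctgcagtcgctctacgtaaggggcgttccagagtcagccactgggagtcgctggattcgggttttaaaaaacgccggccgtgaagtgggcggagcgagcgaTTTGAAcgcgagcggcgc
CCNB2 (chr15:59104996-59105145, + strand): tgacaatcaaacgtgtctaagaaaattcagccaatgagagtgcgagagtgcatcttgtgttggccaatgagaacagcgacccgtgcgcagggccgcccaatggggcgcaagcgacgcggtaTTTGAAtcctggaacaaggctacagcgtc
PLK1 (chr16:23678739-23678888, + strand): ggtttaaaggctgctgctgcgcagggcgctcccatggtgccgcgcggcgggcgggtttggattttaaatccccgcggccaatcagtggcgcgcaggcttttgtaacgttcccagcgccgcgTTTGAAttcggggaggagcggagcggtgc
The match starts 18 bases before the start in CENPA and 29 bases before it in CCNB2, a mitotic cyclin, and in PLK1, a mitotic kinase. CCNB2 and PLK1 were chosen after their values were seen and had log2 fold changes of -3.27 ± 0.17 and -3.43 ± 0.31. TTTGAA was searched on both strands over 300 bases (250 before to 50 after the start). It occurred in 18 of the 25 mitosis genes with a RefSeq promoter (72.0%). Of all genes tested, 10819 had such a promoter, and 1541 of these held it (14.2%). Genes with a promoter numbered 2012 of those called lower and 1756 of those called higher. TTTGAA occurred in 368 (18.3%) and 239 (13.6%) of them. The letters CCAAT, the NF-Y box, occurred in 19 of the 25 and in 43.3% of the 10819.

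DNA replication genes fell as a whole list too. All 30 members were called lower, from -3.32 to -0.44, with a median of -1.67. ORC1, the largest subunit of the origin recognition complex, was at 15.4 and 14.5 CPM in cycling and 1.44, 1.29 and 1.77 CPM in irradiated cells (-3.32 ± 0.23, adjusted p = 3.10e-07). MCM10 and CDC45, which act when the replicative helicase is activated, changed by -3.03 ± 0.26 and -2.90 ± 0.25, and the checkpoint mediator CLSPN by -2.39 ± 0.16. PCNA, the sliding clamp (chosen after its values were seen), had the smallest change of the list, from 134 and 107 to 79.2, 94.2 and 93.5 CPM (-0.44 ± 0.14, adjusted p = 0.0291). The call of PCNA was lost without cycling 1 (adjusted p = 0.316) and irradiated 1 (0.109). Against quiescent cells 25 of the 30 were lower, where 9.71% of all genes were. Against etoposide-treated cells, where 9.67% of all genes were higher and 12.9% lower, 1 was higher and 1 lower. Without 1 library these last counts were 0 to 1 and 0 to 2, with 2 lower without etoposide 3.

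Promoters of 2 genes of this list show another of the motifs searched, TTTNNCGC, the core of an E2F site. It is in capitals on either strand over the same 150 bases.
MCM6 (chr2:135876444-135876593, - strand): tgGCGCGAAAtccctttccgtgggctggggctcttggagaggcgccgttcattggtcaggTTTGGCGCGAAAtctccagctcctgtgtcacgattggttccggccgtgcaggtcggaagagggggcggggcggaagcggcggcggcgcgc
GINS2 (chr16:85688955-85689104, - strand): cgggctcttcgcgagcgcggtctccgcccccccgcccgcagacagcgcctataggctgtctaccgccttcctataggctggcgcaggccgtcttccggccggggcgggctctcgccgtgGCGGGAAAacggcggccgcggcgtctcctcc
In MCM6, a helicase subunit, 3 matches start 148, 90 and 86 bases before the transcription start and the last pair overlap. GINS2, a subunit of the GINS complex of the same helicase, has a single match 31 bases before it. Both genes were chosen after their values were seen, and changed by -1.05 ± 0.21 and -2.31 ± 0.19. TTTNNCGC occurred in 19 of 27 replication promoters (70.4%), in 2 of 25 mitosis promoters (8.0%) and in 12.9% of the 10819. TTTGAA was in 0 of the 27 replication promoters. A match is a description of the letters in this window and says nothing of binding in these cells.

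Enzymes that supply deoxynucleotides fell in 10 of 14 cases and rose in 0, where 18.8% of all genes fell. TK1, cytosolic thymidine kinase, was at 90.0 and 89.2 CPM in cycling and 10.8, 10.5 and 10.3 CPM in irradiated cells (-3.09 ± 0.23, adjusted p = 5.27e-07). RRM2, the cell cycle-regulated subunit of ribonucleotide reductase, changed by -2.34 ± 0.20 and DTYMK by -1.34 ± 0.15. The purine enzyme GART, the most abundant member not called, was at 93.4 and 75.3 CPM in cycling and 65.2, 72.6 and 69.5 CPM in irradiated cells (adjusted p = 0.0631). Homologous recombination and Fanconi anaemia genes repair double-strand breaks and crosslinks in S and G2 phase. They were lower in 17 of 18 cases, where 18.8% of all genes were, with a median of -1.95. RAD54L, a motor protein of strand exchange, changed by -3.19 ± 0.37, the helicase BLM by -3.00 ± 0.26, RAD51AP1 by -2.42 ± 0.27 and FANCD2 by -2.90 ± 0.22, with FANCD2 at 34.6 and 31.9 CPM in cycling and 4.55, 4.73 and 4.09 CPM in irradiated libraries. PALB2, which links BRCA1 with BRCA2, was the member not called, at 29.8 and 24.5 CPM in cycling and 24.7, 28 and 29.2 CPM in irradiated cells (0.01 ± 0.17, adjusted p = 0.983).

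Replication-dependent histone mRNAs had the lowest list median. Of 29 tested genes, 28 fell, with a median of -3.30, and their summed level was 4286 and 3246 CPM in cycling and 849, 926 and 869 CPM in irradiated libraries. H2AC14 was at 66.7 and 48.6 CPM in cycling and 2.09, 1.68 and 1.45 CPM in irradiated cells (-5.05 ± 0.22, adjusted p = 1.58e-08), and H2BC14, H3C8 and H4C9 changed by -4.95 ± 0.26, -4.58 ± 0.29 and -4.47 ± 0.27. Of the 12 largest falls outside the list at 5 CPM or more with groups that do not overlap, 6 were other histone genes. They were H3C12, H3C13, H3C7, H3C3, H2BC10 and H4C13, from -4.84 to -3.69. Counted by gene name, 47 of 48 tested histone genes on chromosome 6 between 26017032 and 27893891 (GRCh38.p14) were called lower. On chromosome 1, 6 of 8 were lower and 1 was higher, and the 1 on chromosome 12 was not called. H2AC6 was the exception in the list, at 204 and 170.3 CPM in cycling and 204, 242 and 215 CPM in irradiated cells (0.23 ± 0.12, adjusted p = 0.166). Histone copies are near identical, so reads can be lost to multiple mapping and single-gene values are uncertain. In quiescent cells H2AC14 was at 30.9, 43.2 and 30.1 CPM. Irradiated cells were lower than quiescent cells in 27 of 29, where 9.71% of all genes were.

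Lamina and chromatin genes were lower in 17 of 21 cases and higher in 0, where 18.8% of all genes were lower. LMNB1, lamin B1, was at 82.7 and 69.7 CPM in cycling, 30.8, 42.2 and 32.6 CPM in quiescent and 6.71, 6.26 and 6.68 CPM in irradiated cells, with no overlap between the 3 groups. Its log2 fold change was -3.54 ± 0.16 against cycling (adjusted p = 1.58e-08) and -2.42 ± 0.15 against quiescent cells (adjusted p = 5.61e-07). LBR, the lamin B receptor, TMPO, which encodes the LAP2 proteins, and HMGB2, a DNA-bending protein, changed by -2.69 ± 0.25, -2.31 ± 0.21 and -2.61 ± 0.15. LMNA, the A-type lamin gene, was at 499 and 532 CPM in cycling and 481, 504 and 453 CPM in irradiated cells and was not called (-0.11 ± 0.15, adjusted p = 0.626).

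The D-type cyclins rose while cyclin A2, E2F1 and E2F8 fell. CCND2 (cyclin D2, chr12:4273762-4305353, GRCh38.p14) was at 45.2 and 47.6 CPM in cycling and 914, 886 and 999 CPM in irradiated cells, 20.1 times as high (4.33 ± 0.15, adjusted p = 3.25e-09). Its quiescent libraries were at 129.9, 109 and 113 CPM and its etoposide libraries at 797, 945 and 1004 CPM. CCND1 went from 896 and 782 CPM in cycling to 3401, 3227 and 3285 CPM in irradiated cells (1.98 ± 0.15, adjusted p = 6.38e-07), CCND3 rose by 0.67 ± 0.14 and their kinase partner CDK6 by 1.03 ± 0.13. CDK4, the other partner, was not called, at 267 and 248 CPM in cycling and 243, 279 and 245 CPM in irradiated cells (-0.01 ± 0.13, adjusted p = 0.961). Cyclin A2 (CCNA2), FOXM1 and E2F8 changed by -3.08 ± 0.22, -3.05 ± 0.23 and -3.06 ± 0.42, and E2F1, an activating E2F, was at 31.7 and 22.7 CPM in cycling and 8.72, 10.0 and 8.80 CPM in irradiated cells (-1.57 ± 0.20, adjusted p = 4.36e-05). In all, 6 of the 24 genes of this list rose and 13 fell, where 16.2% of all genes rose and 18.8% fell.

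CDK inhibitors split, with 3 of 8 higher and 3 lower, where 16.2% of all genes rose and 18.8% fell. CDKN1A, which encodes p21, was at 775 and 824 CPM in cycling and 2449, 2863 and 2434 CPM in irradiated libraries (1.69 ± 0.16, adjusted p = 3.24e-06). CDKN2B, which encodes p15, went from 43.0 and 40.6 CPM in cycling to 98.9, 89.9 and 93.4 CPM in irradiated cells (1.17 ± 0.14, adjusted p = 2.36e-05). CDKN2A, which encodes p16 and p14ARF, was at 14.2 and 14.5 CPM in cycling and 26.0, 27.6 and 22.3 CPM in irradiated cells (0.82 ± 0.22, adjusted p = 0.0112), and these counts do not separate its transcripts. Quiescent libraries were at 37.1, 24.2 and 19.7 CPM for CDKN2A and 104, 93.9 and 114 CPM for CDKN2B, and neither differed by the test from irradiated cells (adjusted p = 0.782 and 0.428). CDKN1A was higher than in quiescent cells by 1.27 ± 0.13 (adjusted p = 2.93e-05). The mitotic phosphatase gene CDKN3, CDKN2C (p18) and CDKN1B (p27) had log2 fold changes of -3.33, -3.01 and -0.63. CDKN2D, which encodes p19, was not called (adjusted p = 0.922). The call of CDKN2A was lost without cycling 1 (adjusted p = 0.0820) and cycling 2 (0.0638), and that of CDKN1B without cycling 2 (adjusted p = 0.0618).

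Of 24 p53 targets, 15 rose and 1 fell, with a median of 0.71, where 16.2% of all genes rose and 18.8% fell. MDM2, the ubiquitin ligase that p53 induces and that degrades it, was at 370.1 and 364 CPM in cycling and 804, 766 and 809.8 CPM in irradiated cells (1.11 ± 0.11, adjusted p = 6.94e-06). TIGAR, a fructose bisphosphatase-like regulator, rose by 1.71 ± 0.21, the antiproliferative gene BTG2 by 1.63 ± 0.22, GADD45A by 1.5 ± 0.13 and the RNA-binding protein ZMAT3 by 1.46 ± 0.13. GDF15, a stress-induced secreted factor, was at 20.2 and 16.3 CPM in cycling and 33.0, 41.1 and 28.9 CPM in irradiated cells (0.91 ± 0.16, adjusted p = 0.000812), and at 84.1, 95.7 and 102 CPM in etoposide-treated cells (-1.45 ± 0.14 for irradiated against etoposide, adjusted p = 5.79e-05). TP53I3, an oxidoreductase gene, changed by 0.61 ± 0.13. The death receptor gene TNFRSF10B was the member called lower, at -0.43 ± 0.12, and CCNG1 was the most abundant one not called (adjusted p = 0.246). The call of TP53I3 was lost without cycling 1 (adjusted p = 0.0678), and that of TNFRSF10B without cycling 1 (adjusted p = 0.0704), cycling 2 (0.0969), irradiated 1 (0.0590) and irradiated 3 (0.0561). Against quiescent cells 11 of the 24 were higher, where 9.02% of all genes were. That count was 7 without irradiated 1.

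Antioxidant genes of the NRF2 programme and the ferritin genes rose in 13 of 19 cases and fell in 0, where 16.2% of all genes rose. FTL, the ferritin light chain, was at 6497 and 6878 CPM in cycling and 21116, 24445 and 19867 CPM in irradiated libraries (1.71 ± 0.14, adjusted p = 1.54e-06). FTH1, the heavy chain, went from 2515 and 2846 CPM in cycling to 10781, 9682 and 9369 CPM in irradiated cells (1.89 ± 0.39, adjusted p = 0.00193). Quiescent libraries lay between for both, at 12528, 10580.3 and 9372 CPM for FTL and 6349, 5519.8 and 4059.8 CPM for FTH1. OSGIN1, an oxidative stress-induced growth inhibitor, rose by 1.68 ± 0.31. Heme oxygenase HMOX1 rose by 1.66 ± 0.19 and thioredoxin reductase TXNRD1 by 1.15 ± 0.12 (both chosen after their values were seen). PGD, of the pentose phosphate pathway, was not called, with 249.9 and 371 CPM in cycling and 589.9, 478 and 464 CPM in irradiated cells (adjusted p = 0.0712). The summed level of the list was 13119 and 13827 CPM in cycling and 38456, 41153 and 35603 CPM in irradiated cells, most of it ferritin. Both ferritin genes have many processed pseudogenes, so their counts are uncertain. Against quiescent cells 11 of 19 were higher and 0 lower, where 9.02% of all genes were higher. Against etoposide-treated cells, where 9.67% of all genes were higher and 12.9% lower, 1 was higher and 1 lower. The last was 0 without any 1 library, and the higher count was 3 without etoposide 3 and 0 without etoposide 1, etoposide 2, irradiated 2 or irradiated 3. The antioxidant response element letters TGACNNNGC occurred in 4 of 13 promoters of the list and in 19.3% of the 10819 tested genes with a promoter.

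Most cytokines of the secretory phenotype were lower than after etoposide. Against cycling cells 3 of 19 tested rose and 4 fell, a share of 36.8% called that lies near the 35.0% of all genes. IL6 was at 9.09 and 9.24 CPM in cycling and 24.6, 24.6 and 24.8 CPM in irradiated cells (1.43 ± 0.30, adjusted p = 0.00218), with no overlap. The monocyte chemokine CCL2 rose by 1.13 ± 0.19 and TSLP by 0.71 ± 0.22. CXCL12, the ligand of CXCR4, fell from 51.9 and 66.6 CPM in cycling to 10.2, 9.46 and 9.87 CPM in irradiated cells (-2.59 ± 0.22, adjusted p = 1.62e-06), and IL11 and IL1B changed by -1.99 ± 0.27 and -1.23 ± 0.38. The remaining gene called lower, CCL20, had 23 counts in cycling 2, 1 in the irradiated libraries and 0 in cycling 1. CXCL8 (interleukin 8) was at 3.18 and 16.6 CPM in cycling and 4.47, 6.88 and 7.43 CPM in irradiated cells. Its cycling libraries enclosed the irradiated ones and it was not called (-0.63 ± 0.66, adjusted p = 0.499), with a change of 0.98 without cycling 2. The most abundant cytokine not called was LIF, at -0.21 ± 0.13 (adjusted p = 0.236). The call of IL1B was lost without cycling 2 (adjusted p = 0.422), irradiated 1 (0.0603) and irradiated 3 (0.0611), that of TSLP without cycling 2 (adjusted p = 0.177) and irradiated 2 (0.0603), and that of CCL20 without cycling 2 (adjusted p = 0.676), irradiated 1 (0.0784), irradiated 2 (0.1000) and irradiated 3 (0.0996).

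Etoposide libraries were at 438, 152 and 279 CPM for CXCL8 and 55.6, 33.1 and 59.5 CPM for IL6, and every one of them was above every irradiated library. The irradiated cells were lower in 16 of 19 cytokines and higher in 0, with a median difference of -2.95, where 12.9% of all genes tested were called lower. The difference was -5.53 ± 0.65 for CXCL8 (adjusted p = 0.000146), -2.95 ± 0.34 for IL1B (adjusted p = 0.000133) and -1.0 ± 0.25 for IL6 (adjusted p = 0.0107). IL6 was at 12.1, 13.8 and 23.7 CPM in quiescent libraries, whose range reached close to the irradiated values (adjusted p = 0.125).

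Matrix proteases and the plasmin system fell in 6 and rose in 3 of 19 cases, where 18.8% of all genes fell and 16.2% rose. MMP1, interstitial collagenase, was at 83.4 and 69.4 CPM in cycling, 34.8, 69.8 and 69.9 CPM in quiescent, 12.6, 14.1 and 13.9 CPM in irradiated and 78.5, 60.6 and 68.7 CPM in etoposide-treated cells. The irradiated libraries were the lowest of these, with a log2 difference of -2.50 ± 0.25 against cycling (adjusted p = 5.69e-06) and -2.36 ± 0.23 against etoposide-treated cells (adjusted p = 5.79e-05). MMP3, stromelysin, was at 1.24 and 1.14 CPM in cycling and 0.493, 0.508 and 0.825 CPM in irradiated cells and not called (adjusted p = 0.422), while the etoposide libraries were at 131, 51.7 and 54.1 CPM. PLAUR, the urokinase receptor, and MMP19 changed by -1.79 ± 0.25 and -1.24 ± 0.20. The aggrecanase ADAMTS5, ADAMTS19 and SERPINB2 (PAI-2) rose, by 1.75 ± 0.34, 3.39 ± 0.34 and 2.51 ± 0.32. TIMP1, the most abundant member not called, was at 744 and 802 CPM in cycling and 689.7, 752 and 628 CPM in irradiated cells and at 2020.0, 2306 and 2277 CPM after etoposide. Irradiated cells were lower than etoposide-treated cells in 14 of 19 and higher in 0, where 12.9% of all genes were lower and 9.67% higher.

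Secreted growth factors and IGF binding proteins rose in 4 and fell in 7 of 24 cases, where 16.2% of all genes rose and 18.8% fell. FGF7, keratinocyte growth factor, was at 139 and 187 CPM in cycling and 587, 506 and 542 CPM in irradiated cells (1.74 ± 0.31, adjusted p = 0.000750). IGFBP2 and FGF2 rose by 1.18 ± 0.23 and 0.75 ± 0.23, and ANGPT1, the TIE2 ligand, by 1.31 ± 0.43. HBEGF, an EGF receptor ligand, IGFBP6 and PDGFC changed by -2.12 ± 0.31, -1.65 ± 0.18 and -1.18 ± 0.18. IGF2, under 2 CPM in every library of both groups, changed by -1.60 ± 0.53. IGFBP5 was at 1613 and 2601 CPM in cycling and 4519.9, 3459.9 and 3486 CPM in irradiated cells and just missed the threshold (0.86 ± 0.33, adjusted p = 0.0561). IGFBP3 was at 108 and 91.8 CPM in cycling, 45.5, 52.9 and 60.2 CPM in irradiated and 213, 296 and 191 CPM in etoposide-treated cells, and passed the test against the last (-2.14 ± 0.41, adjusted p = 0.00254) but not against cycling cells (adjusted p = 0.124). The call of FGF2 was lost without cycling 1 (adjusted p = 0.0766), cycling 2 (0.151) and irradiated 3 (0.0722), that of ANGPT1 without each of the 5 libraries in turn (adjusted p from 0.0548 to 0.177), and that of IGF2 without cycling 1 (adjusted p = 0.0660), cycling 2 (0.164), irradiated 1 (0.0800) and irradiated 2 (0.0881). Calls numbered 7 without cycling 1, against 11.

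Collagens were lower in 8 and higher in 1 of 21 cases, where 18.8% of all genes were lower and 16.2% higher. The 2 cycling libraries differed in the abundant collagens. COL1A1 was at 922 and 2255 CPM in cycling and 812, 669 and 1023 CPM in irradiated libraries, and was not called (-0.93 ± 0.45, adjusted p = 0.126). COL1A2 was likewise not called (adjusted p = 0.0577), with 2008 and 3624 CPM in cycling and 1559, 1509.7 and 1715 CPM in irradiated cells. COL6A3, of the beaded filament collagen VI, fell from 1437 and 2062 CPM in cycling to 717, 697 and 674 CPM in irradiated cells (-1.33 ± 0.25, adjusted p = 0.00118), and the basement membrane chain COL4A1, COL16A1 and the low-level COL8A2 changed by -1.36 ± 0.35, -1.32 ± 0.22 and -2.03 ± 0.41. COL14A1, a fibril-associated collagen, rose from 13.4 and 18.8 CPM in cycling to 107, 97.6 and 118 CPM in irradiated cells (2.74 ± 0.27, adjusted p = 5.89e-06). The summed level of the list was 8326 and 13398 CPM in cycling and 6004, 6031 and 6456 CPM in irradiated libraries. The calls numbered 4 without cycling 2 and 5 without irradiated 1, against 9 with all libraries. The call of COL4A1 was lost without cycling 2 (adjusted p = 0.0699).

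Other matrix proteins mostly missed the test, with 1 of 22 higher and 3 lower, where 16.2% of all genes rose and 18.8% fell. The collagen-binding glycoprotein SPARC was at 2186 and 2091 CPM in cycling and 887, 1065 and 974 CPM in irradiated cells (-1.13 ± 0.22, adjusted p = 0.00122). FBLN2 and the crosslinking enzyme LOXL1 changed by -1.41 ± 0.24 and -0.98 ± 0.14, and the proteoglycan lumican (LUM) was higher by 1.05 ± 0.35. Fibronectin, FN1, was at 3452 and 4638 CPM in cycling and 2909, 2981 and 2832 CPM in irradiated cells (adjusted p = 0.146). The call of LUM was lost without each of the 5 libraries in turn (adjusted p from 0.0557 to 0.186). In the TGF-beta and activin list 7 of 24 fell and 1 rose, where 18.8% of all genes fell and 16.2% rose. TGFBI, a TGF-beta-induced matrix protein, went from 2159.9 and 2688 CPM in cycling to 971, 975 and 972 CPM in irradiated cells (-1.32 ± 0.14, adjusted p = 1.16e-05). The secreted antagonists FST (follistatin) and GREM1 changed by -1.42 ± 0.29 and -1.0 ± 0.21, and the ligand BMP4 rose by 1.15 ± 0.22. SMAD3, a signal transducer of the pathway, was not called (adjusted p = 0.112).

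Contractile genes rose in 4 and fell in 2 of 20 cases, where 16.2% of all genes rose and 18.8% fell. LMOD1, an actin nucleator of smooth muscle, rose by 0.87 ± 0.13, CALD1 by 0.70 ± 0.15, TPM2 by 0.63 ± 0.15 and TAGLN by 0.51 ± 0.14. ACTB, cytoplasmic actin, was not called (adjusted p = 0.468) and TGFB1I1, a focal adhesion protein gene, changed by -0.53 ± 0.15. ACTA2, smooth muscle actin and the usual myofibroblast marker, was at 754 and 636 CPM in cycling and 876, 1049 and 897 CPM in irradiated cells and was not called (0.44 ± 0.26, adjusted p = 0.210). A fit of only these 5 libraries called it (0.41, adjusted p = 0.00513), and over all alternatives its adjusted p ran from 0.00513 to 0.545. The oxytocin receptor gene OXTR fell from 24.8 and 18.8 CPM in cycling to 3.22, 3.40 and 4.09 CPM in irradiated cells (-2.61 ± 0.21, adjusted p = 1.16e-06), with quiescent libraries at 3.74, 3.59 and 2.30 CPM. The call of TAGLN was lost without cycling 1 (adjusted p = 0.0504), cycling 2 (0.119) and irradiated 2 (0.0585), that of TPM2 without cycling 2 (adjusted p = 0.0770), and that of TGFB1I1 without cycling 2 (adjusted p = 0.126) and irradiated 3 (0.0568). Contractile calls numbered 3 without cycling 2, against 6. WNT pathway genes were lower in 6 and higher in 3 of 14 cases, where 18.8% of all genes fell and 16.2% rose. The ligand WNT5A and the antagonists SFRP1, FRZB and DKK1 changed by -1.22 ± 0.23, -1.60 ± 0.16, -1.68 ± 0.38 and -1.23 ± 0.28. LEF1, a nuclear effector and target, rose by 1.85 ± 0.34 and the feedback inhibitor AXIN2 by 1.24 ± 0.37. RSPO3, an enhancer of WNT signalling, had 8 counts in cycling cells and was at 3.41, 1.60 and 4.13 CPM in irradiated cells, a ratio of 17.8 (95% exact interval 8.88 to 41.7). DKK3 was not called (adjusted p = 0.0715). The call of AXIN2 was lost without cycling 1 (adjusted p = 0.206), that of DKK1 without cycling 1 (adjusted p = 0.0517), that of FRZB without cycling 2 (adjusted p = 0.0648), and that of RSPO3 without cycling 1 (adjusted p = 0.0537). WNT calls numbered 4 without cycling 1, against 9.

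Interferon-stimulated genes rose in 7 of 23 cases and fell in 2, where 16.2% of all genes rose and 18.8% fell. STAT2, which transmits interferon signals, was at 127 and 146 CPM in cycling and 257, 259 and 259 CPM in irradiated cells (0.92 ± 0.11, adjusted p = 2.34e-05), and IFIT2 rose by 1.56 ± 0.17. The fall of OAS3 was -1.11 ± 0.25, and the other call lower, IRF9, rested on at most 1.04 CPM. OAS2 had 4 counts in cycling cells and was called higher. The call of IRF9 was lost without cycling 1 (adjusted p = 0.0644), cycling 2 (0.0668) and irradiated 1 (0.0581), and that of OAS2 without cycling 1 (adjusted p = 0.0554), cycling 2 (0.186), irradiated 2 (0.104) and irradiated 3 (0.0765). ISG15 was at 20.3 and 23.4 CPM in cycling and 29.5, 45.0 and 31.5 CPM in irradiated cells, with irradiated libraries above both cycling ones, and missed the threshold (adjusted p = 0.0709). The calls of the list numbered 5 without cycling 1, against 9.

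Class I antigen presentation fell in 11 of 15 cases and rose in 1, where 18.8% of all genes fell and 16.2% rose. The list's median was -1.08. The peptide transporter subunit TAP2 was at 8.76 and 8.98 CPM in cycling and 2.31, 3.56 and 3.97 CPM in irradiated cells (-1.43 ± 0.26, adjusted p = 0.000833). The trimming peptidase ERAP2 and the chaperone calreticulin (CALR) changed by -1.38 ± 0.26 and -1.33 ± 0.24. PSMB10, an immunoproteasome subunit, was the member that rose (0.77 ± 0.23), and HLA-E was not called (adjusted p = 0.442). The call of PSMB10 was lost without cycling 1 (adjusted p = 0.0658), cycling 2 (0.122) and irradiated 2 (0.0713). HLA genes are highly polymorphic and similar to each other, so their counts are uncertain. Complement gave 2 rises and 1 fall among 13, where 16.2% of all genes rose and 18.8% fell. C3 had 3 counts in cycling cells, all in cycling 2, and was at 3.37, 3.44 and 2.48 CPM in irradiated cells, a ratio of 48.3 (95% exact interval 16.3 to 236). Etoposide-treated cells were at 66.0, 37.6 and 47.5 CPM. The C1 inhibitor gene SERPING1 rose by 1.33 ± 0.31 and CD59, which blocks the membrane attack complex, had a log2 fold change of -1.27. CLU, clusterin, was not called (adjusted p = 0.176). The call of C3 was lost without cycling 1 (adjusted p = 0.0573), and that of SERPING1 without cycling 1 (adjusted p = 0.0801). Complement had 1 call without cycling 1, against 3.

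ER chaperones and genes of the unfolded protein response fell in 16 of 20 cases and rose in 0, where 18.8% of all genes fell. The list's median was -0.98. DNAJB11, an ER co-chaperone, was at 37.5 and 38.0 CPM in cycling and 12.6, 13.7 and 11.1 CPM in irradiated cells (-1.60 ± 0.24, adjusted p = 0.000218). The disulfide isomerases PDIA6, PDIA4 and PDIA3 changed by -1.59 ± 0.25, -1.49 ± 0.22 and -1.45 ± 0.25. HSPA5, which encodes the main ER chaperone BiP, was at 122 and 167 CPM in cycling and 76.9, 61.7 and 71.3 CPM in irradiated cells and missed the threshold (-1.05 ± 0.43, adjusted p = 0.0720). HSP90B1, the ER paralog of HSP90 (chosen after its values were seen), had a log2 fold change of -1.13 (adjusted p = 0.0124). The call of HSP90B1 was lost without cycling 2 (adjusted p = 0.0702). Against quiescent cells 2 of the 20 were lower, where 9.71% of all genes were. That count was 11 without quiescent 1 and 0 without any other library. Against etoposide-treated cells all 20 were lower, with a median of -1.16, where 12.9% of all genes were lower. HSPA5 was at 131, 213 and 273 CPM in the etoposide libraries (-1.56 ± 0.39, adjusted p = 0.0120).

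Both chaperone promoters below hold the ER stress element, the letters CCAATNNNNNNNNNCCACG on either strand, which ATF6 and NF-Y are known to bind together.
HSPA5 (chr9:125241344-125241493, - strand): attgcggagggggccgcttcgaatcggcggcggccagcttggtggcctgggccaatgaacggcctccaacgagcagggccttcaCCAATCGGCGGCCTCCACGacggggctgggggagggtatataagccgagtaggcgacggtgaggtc
HSP90B1 (chr12:103930260-103930409, + strand): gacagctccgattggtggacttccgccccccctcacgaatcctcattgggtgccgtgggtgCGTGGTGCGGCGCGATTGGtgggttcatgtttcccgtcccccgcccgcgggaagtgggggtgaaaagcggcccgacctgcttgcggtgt
In HSPA5 the match starts 66 bases before the transcription start. In HSP90B1 it lies on the other strand and starts 89 bases before it. The element occurred in 6 of 19 promoters of the list (31.6%) and in 16 of the 10819 tested genes with a promoter (0.148%). Its CCAAT part overlaps the CCAAT box counted above.

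Lysosomal genes gave 10 falls and 3 rises among 27, where 18.8% of all genes fell and 16.2% rose. GLB1, whose product is the source of senescence-associated beta-galactosidase activity, was at 60.3 and 63.2 CPM in cycling and 39.4, 45.2 and 41.6 CPM in irradiated libraries, a log2 fold change of -0.55 ± 0.14 (adjusted p = 0.00923). Etoposide libraries were at 75.6, 77.8 and 69.3 CPM, above all irradiated libraries (-0.82 ± 0.13, adjusted p = 0.000781). GUSB (beta-glucuronidase), the protease CTSB and the tetraspanin CD63 had log2 fold changes of -1.63, -1.28 and -0.97, and FUCA1 changed by -0.96 ± 0.25. The collagen-degrading protease CTSK rose by 0.92 ± 0.31, CTSF by 0.63 ± 0.17 and the ceramidase ASAH1 by 0.46 ± 0.16. LAMP1, a main lysosomal membrane protein, was not called (adjusted p = 0.194). The call of GLB1 was lost without cycling 2 (adjusted p = 0.0669), that of CTSK without each of the 5 libraries in turn (adjusted p from 0.0519 to 0.147), that of ASAH1 without each of the 5 libraries in turn (adjusted p from 0.0613 to 0.167), that of CTSF without cycling 1 (adjusted p = 0.136), and that of FUCA1 without cycling 2 (adjusted p = 0.0594). The list had 8 calls without cycling 1 and 8 without cycling 2, against 13. Against quiescent cells 1 was higher and 1 lower, where 9.02% of all genes were higher and 9.71% lower. Without 1 library the higher count was 0 to 2, at 0 without irradiated 2 and 2 without quiescent 2 or 3. The lower count was 5 without quiescent 1, 1 without quiescent 3 and 0 without any other library. Against etoposide-treated cells 21 of 27 were lower and 0 higher, where 12.9% of all genes were lower and 9.67% higher.

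**Figure D3:**
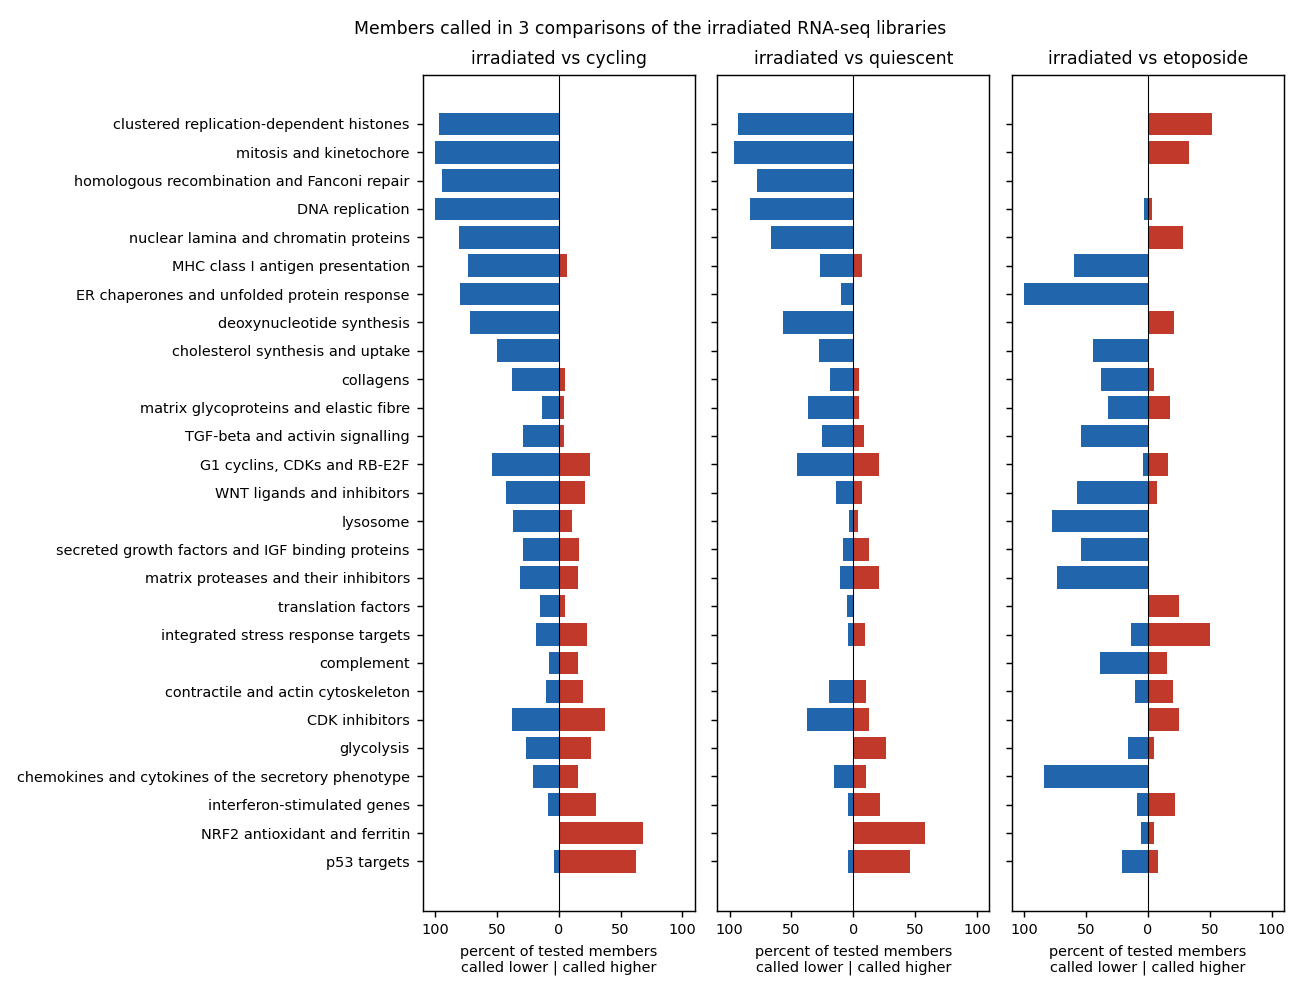
Percent of tested members of each list called higher (red, to the right) or lower (blue, to the left) in irradiated libraries against cycling, quiescent and etoposide-treated cells, at an adjusted p under 0.05. Cell cycle lists are low against cycling and quiescent cells, while ER chaperones, cytokines, matrix proteases and lysosomal genes are low against etoposide-treated cells. The comparisons share the irradiated libraries.

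Cholesterol synthesis and uptake fell in 9 of 18 cases and rose in 0, where 18.8% of all genes fell. INSIG1, the sterol sensor that retains SREBP in the ER, was at 270.5 and 252 CPM in cycling and 62.3, 65.8 and 67.1 CPM in irradiated cells (-2.01 ± 0.12, adjusted p = 1.15e-07). DHCR7 changed by -1.47 ± 0.23. FDFT1 was not called (adjusted p = 0.322). Glycolytic genes split evenly, with 5 higher and 5 lower of 19, where 16.2% of all genes rose and 18.8% fell. Hexokinase 2 (HK2) rose by 1.14 ± 0.24, ALDOC by 0.74 ± 0.14, PFKL by 0.64 ± 0.16 and PFKM by 0.45 ± 0.12. The glucose importer SLC2A1 and the lactate exporter SLC16A3 had log2 fold changes of -0.99 and -1.48, and LDHA and ENO1 of -0.59 and -0.40. GAPDH was at 5421 and 5656 CPM in cycling and 5848, 7062 and 5752 CPM in irradiated cells and not called (adjusted p = 0.345). The call of SLC2A1 was lost without cycling 2 (adjusted p = 0.0980), that of LDHA without cycling 1 (adjusted p = 0.0810), cycling 2 (0.0991), irradiated 2 (0.0549) and irradiated 3 (0.0535), that of ENO1 without cycling 1 (adjusted p = 0.248), cycling 2 (0.0656), irradiated 1 (0.125) and irradiated 3 (0.108), that of PFKL without cycling 1 (adjusted p = 0.0835), and that of PFKM without cycling 1 (adjusted p = 0.0779) and cycling 2 (0.0552). Glycolysis had 4 calls without cycling 1 and 4 without cycling 2, against 10.

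The integrated stress response slows translation initiation through eIF2alpha and favours translation of ATF4, which then induces amino acid and stress genes. In RNA, ATF4 was at 577 and 549 CPM in cycling and 601, 637 and 586 CPM in irradiated cells and was not called (0.11 ± 0.11, adjusted p = 0.450). Of 22 ATF4 and stress response genes, 5 rose and 4 fell, where 16.2% of all genes rose and 18.8% fell. The transcription factors ATF3 and DDIT3 (CHOP) rose by 1.41 ± 0.15 and 1.23 ± 0.14, the pseudokinase TRIB3 by 0.85 ± 0.13 and NUPR1 by 0.79 ± 0.21, with DDIT3 at 41.5 and 39.7 CPM in cycling and 85.8, 108 and 92.1 CPM in irradiated cells. The 2 chains of the large neutral amino acid transporter, SLC7A5 and SLC3A2, had log2 fold changes of -1.97 and -0.92, and the serine synthesis genes PHGDH and PSPH had changes of -0.76 and -0.59. The call of NUPR1 was lost without cycling 1 (adjusted p = 0.0720) and cycling 2 (0.0654), that of PHGDH without each of the 5 libraries in turn (adjusted p from 0.0695 to 0.137), and that of PSPH without cycling 1 (adjusted p = 0.0688). The list's calls numbered 5 without cycling 1, against 9. Against etoposide-treated cells 11 of 22 were higher and 3 lower, where 9.67% of all genes were higher and 12.9% lower. The higher count was 7 without etoposide 1, 6 without etoposide 2 and 6 without irradiated 2. Of 20 translation factors and eIF2 kinases and eIF2B subunits, 1 rose and 3 fell, where 16.2% of all genes rose and 18.8% fell. EIF4EBP2, a repressor of cap-dependent initiation, rose by 0.74 ± 0.13 while its paralog EIF4EBP1 changed by -0.42 ± 0.14 and the kinase EEF2K by -0.52 ± 0.11. EIF4A1, the initiation helicase, was called lower, but at 5.37 and 4.46 CPM in cycling and 0.796, 1.02 and 0.904 CPM in irradiated cells its level is uncertain, since reads that overlap several genes are not counted. EEF2 was not called (adjusted p = 0.362). The call of EIF4EBP1 was lost without cycling 1 (adjusted p = 0.195), cycling 2 (0.0649), irradiated 1 (0.0969) and irradiated 3 (0.106).

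Ribosome footprints of the same states were counted as another readout, in other libraries from parallel lysates. Of 11762 genes tested there, 40.6% were called in irradiated against cycling cells, 19.0% higher and 21.6% lower. Of 4320 genes called in RNA and tested in footprints, 3284 (76.0%) were called in the same direction and 2 (0.0463%) in the opposite direction. Footprint libraries held 9.88 to 14.4 gene counts in units of 1e6 in cycling and 2.65 to 5.56 in irradiated cells. All 30 mitosis genes and 29 of 30 replication genes were lower in footprints. NRF2 and ferritin genes were higher in 16 of 19 and lower in 1, ER chaperones lower in 18 of 20, and collagens lower in 11 of 19. Of members called in RNA and tested in footprints, 2 of 6 cytokines, 1 of 3 complement genes, 7 of 11 growth factors, 9 of 13 lysosomal genes and 5 of 7 interferon-stimulated genes were called in the same direction, beside 76.0% of all genes. Lysosomal genes higher in footprints numbered 0, against 3 in RNA. The footprint change was 4.33 ± 0.14 for CCND2, 1.72 ± 0.12 for CDKN1A, -3.73 ± 0.17 for LMNB1 and 4.89 ± 0.22 for FMO2, with adjusted p of 4.02e-10, 2.57e-07, 2.97e-09 and 8.05e-09. Some genes that missed the RNA threshold passed it in footprints. The footprint change was -1.41 ± 0.27 for COL1A1 (adjusted p = 0.00107) -1.66 ± 0.27 for HSPA5 (adjusted p = 0.000314) and 0.51 ± 0.12 for ATF4 (adjusted p = 0.00426). The change of footprints relative to RNA was not tested here. For IL6 the footprint change was 0.93 ± 0.53 and was not called (adjusted p = 0.181).

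**Figure D4:**
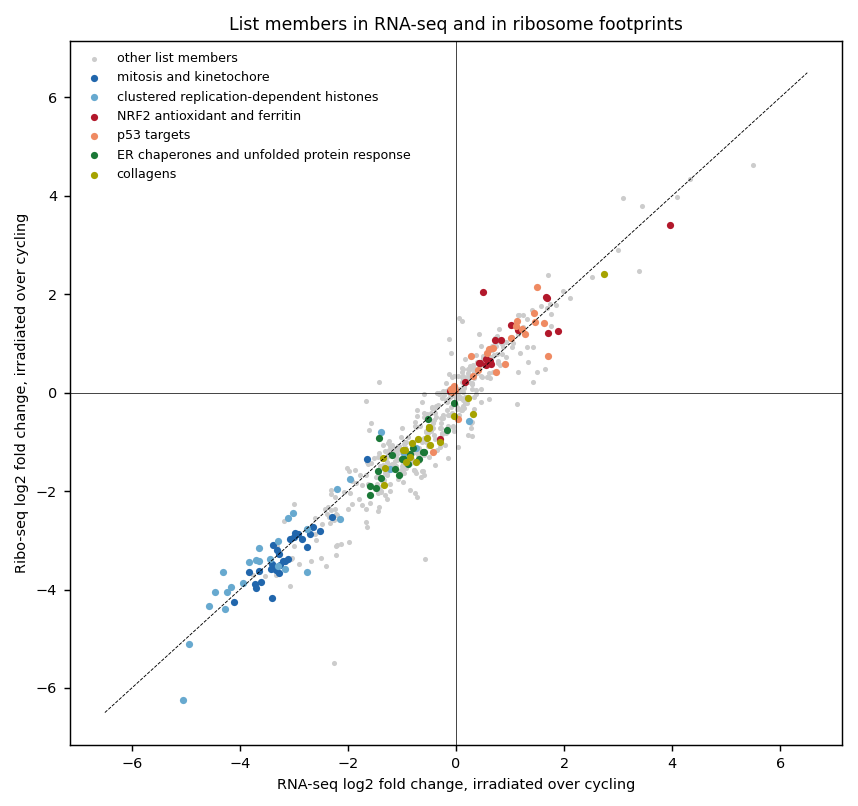
RNA-seq (x) against Ribo-seq (y) log2 fold change of irradiated over cycling cells for list members tested in both, with 6 lists coloured and the dashed line marking equal change. Mitosis and histone genes are low on both axes, ER chaperones lie below 0 on both, COL14A1 is the collagen above 0 on both, and most NRF2 and p53 targets lie above 0 on both.

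Genes called higher had longer spans at the median than genes called lower. The median length from the first to the last annotated base (RefSeq, GRCh38.p14) was 43.6 kb (quartiles 16.2 to 112 kb) for the 2149 genes called higher. It was 30.1 kb (12.8 to 68.9 kb) for the 2494 called lower and 31.5 kb (12.8 to 79.6 kb) for the genes not called. These are descriptions over genes of the same libraries, and no test was made.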

How the data were processed

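RNA-seq and Ribo-seq libraries of IMR90 cells were used. The authors deposited raw counts, which have not been normalized, in the per-gene layout of the aligner STAR, with a column for both strands and one for each. The tools given, per the submitters' processing notes, are bcl2fastq, STAR 2.7.10b and DESeq2 1.36.0, with genome build hg38, and the gene annotation is not given in the sources used here. Lysis took place in polysome buffer containing cycloheximide and RNA-seq libraries came from a stranded TruSeq kit, per the labels' protocols. The reverse-strand column therefore served for RNA-seq and the forward-strand column for Ribo-seq.

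Left out were reads that mapped to several places (13.2% to 33.4% of reads in the 5 libraries), unmapped reads (30.3% to 32.1%) and all further lines without a gene. Of 60534 gene IDs shared by all libraries, 60461 had a symbol and 40459 a RefSeq type (GRCh38.p14), 19297 of them protein coding. The test was the quasi-likelihood F test of edgeR 4.0.16 (R 4.3.3), robust, with TMM scaling, the filterByExpr filter and all 13 RNA-seq libraries in 1 fit, which left 13284 genes. The 14 Ribo-seq libraries had a fit of their own. Two-sided p-values received the Benjamini-Hochberg adjustment over all genes tested, and a gene was called, rose or fell at an adjusted p under 0.05. CPM are counts per 1e6 after TMM scaling, changes are log2 fold changes ± SE, and count intervals cover counting error only. Each SE is the absolute log2 fold change divided by the square root of its F statistic. The script was tested on simulated data.

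Genes in the text are, in each direction, the 12 largest changes outside the histone list with groups that do not overlap and a mean of at least 5 CPM, up to 4 called per list and direction with the most abundant member not called, and a set of known senescence genes. Genes said to be chosen after their values were seen are exceptions, and some genes under the rule are not reported here. The members, lists and rule were chosen with earlier results of these data known. Alternatives were DESeq2 1.42.0, its size factors (RLE), no filter, both strands, genes of all types, other sets of libraries, a replicate block and leaving out each library.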

Additional observations from a re-analysis of the deposited data

How the results depend on the processing

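Calls of irradiated against cycling cells numbered 2796 to 3903 with 1 library left out, 6804 with only the groups compared, 5093 with DESeq2 and 4398 without a filter, against 4643. With 1 library left out, counts against quiescent cells ran from 1440 to 2834 and against etoposide-treated cells from 1843 to 2321. Where a group was left with 1 library, that library was assumed to vary like the others. By list, leaving out 1 library gave 7 to 10 calls for growth factors, 4 to 9 for collagens, 3 to 6 for contractile genes, 5 to 8 for interferon-stimulated genes, 1 to 3 for complement, 8 to 11 for lysosome, 4 to 8 for glycolysis, 5 to 8 for stress response targets and 4 to 9 for WNT genes. With only the groups compared, TGF-beta genes had 16 calls, collagens 15, matrix glycoproteins 14 and complement 7. Replicate numbers were shared by 2 pairs, whose deviations from the group means correlated negatively (r = -0.244 and -0.270 across genes), and no label says that they mark a shared culture. A replicate block gave 4503 calls overall and 8 for matrix glycoproteins, against 4. Leaving out 1 library gave log2 fold changes for CCL20 from -7.10 to 2.10, for CXCL8 from -1.41 to 0.98 (both highest, and reversed, without cycling 2), for CDK4 from -0.0741 to 0.0447 and for PALB2 from -0.12 to 0.15. CDK4 reversed with the replicate block (0.0201) and CDKN2D without the thapsigargin libraries (-0.00293). PALB2 reversed with DESeq2 (-0.00232), RLE factors (-0.00192), only the groups compared (-0.0214), the replicate block (-0.0297) and no thapsigargin libraries (-0.0343). The causes were not tested. The total calls of other lists against cycling cells in RNA stayed within 1.5 times of those reported, and list counts against quiescent and etoposide-treated cells were recomputed only with 1 library left out. Under at least 1 alternative 16 named genes that missed the threshold were called. With only the groups compared these were ACTA2, CCNG1, COL1A2, DKK3, FN1, GART, HSPA5, IGFBP3, IGFBP5, ISG15, LAMP1, MMP3, PGD, SMAD3 and TEK (adjusted p from 3.96e-06 to 0.0404), and with the replicate block COL1A1, COL1A2, DKK3, HSPA5 and ISG15 (0.0212 to 0.0411). DESeq2 called COL1A2, GART, IGFBP5, ISG15 and PGD (0.0223 to 0.0429), and the fit without the thapsigargin libraries COL1A2, GART, HSPA5 and PGD (0.0276 to 0.0492). COL1A2 was also called without cycling 1 (0.0311), and GART and IGFBP5 without cycling 2 (0.0314 and 0.0499). RLE and DESeq2 shifted the median of all genes by under 0.1. For C3, with 3 counts in cycling cells, the 95% counting interval of the ratio ran from 16.3 to 236.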

Other observations

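Long noncoding RNAs were tested in a fit over genes of all types (16582 genes). With XIST left out by name, 191 of 1319 were higher and 114 lower in irradiated against cycling cells (23.1% called). Described here, also without XIST, are the 5 largest changes per direction with a mean of at least 5 CPM and groups that do not overlap. They were chosen after their values were seen. SNHG3, a host gene of small nucleolar RNAs, was at 69.5 and 59.0 CPM in cycling and 6.33, 6.06 and 6.72 CPM in irradiated libraries, which is a change of -3.34 in log2 terms (edgeR, adjusted p = 3.22e-08). SNHG4, another such host gene, was at 16.6 and 15.4 CPM against 3.98, 4.81 and 4.13 CPM, and MIR23AHG, the host of the miR-23a cluster, at 15.1 and 10.0 CPM against 1.86, 2.39 and 2.63 CPM. CARMN and TRHDE-AS1 changed by -1.82 and -1.34. LINC00968 was the largest rise, from 0.985 and 1.40 CPM in cycling to 11.7, 10.0 and 12.8 CPM in irradiated libraries (3.28, adjusted p = 1.13e-06). RNF217-AS1, ZFPM2-AS1, MAP4K3-DT and LINC00632 rose by 1.98, 1.69, 1.58 and 1.46. The irradiated libraries of LINC00632 spread from 48.5 to 102 CPM, the widest of the 10. The lack of overlap in all 10 follows from how they were chosen.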
